A study of Mus musculus with 33 samples.

Results

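The immediate early response genes described here are 10 mouse genes whose RNA is known to rise within minutes of a stimulus, before any new protein is made. They are Fos, Fosb, Egr1, Egr2, Egr3, Jun, Junb, Ier2, Ier3 and Atf3, found by symbol among the 24391 genes of a table of RNA counts, and all 10 were present. They were chosen by their total counts in both cell lines on all 6 days, so those values are given as a description and without a test.

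RNA came from mouse embryonic stem (ES) cells of a CAST/Ei x 129/Sv/Jae cross. One line was labelled ES_RepB, with the genotype RepB, after Repeat B of the noncoding RNA Xist, and the other ES_WT, with the genotype wildtype. The labels do not describe the edit, the allele that carries it or the number of clones. Each line had 1 polyA library at day 0 and at days 5, 6, 7, 8 and 10 of differentiation, so there were no replicate cultures. All cells of day 0 had been on irradiated feeder fibroblasts in medium with LIF and serum. For differentiation the feeders were removed, the cells formed embryoid bodies in suspension, in a medium listed without LIF, and these were plated on gelatin at day 4. Libraries held 3594551 to 15231930 counts in RepB and 7763633 to 17773138 counts in WT, and the WT library of a day was 1.11 times (day 0) to 3.35 times (day 5) as deep as its RepB partner. Levels are given as CPM, the counts scaled to the size of each library, with exact Poisson 95% intervals that cover counting error only.

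Fos and Fosb pair with Jun and Junb to form AP-1, a transcription factor that binds DNA as a dimer of leucine zipper proteins. Egr1, Egr2 and Egr3 are zinc finger transcription factors. Their genes are switched on when growth factor or calcium signals reach the serum response factor, its ternary complex partners and CREB through MAP kinases, and their RNAs are short-lived. In ES cells the MAP kinase pathway that feeds these genes also drives the exit from naive pluripotency. In bulk RNA, fewer cells that express a gene and less RNA per cell cannot be told apart.

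Promoter windows of 250 bases before to 50 bases after the annotated start were taken from RefSeq (GRCm38.p6) and matched 7 of the 10 genes: Fos, Fosb, Egr2, Jun, Junb, Ier3 and Atf3. Egr1, Egr3 and Ier2 are named only. Below, 4 windows are shown, each 5′ to 3′ on the strand of its gene, because Fos, Fosb and Egr2 differed by more than 10-fold between day 0 and later days and Atf3 differed less. Capitals mark matches, on either strand, to the CArG box that serum response factor binds, to TGACGT (part of the CREB site TGACGTCA), to the AP-1 site TGANTCA or to TATAAA.
Fos, chr12:85473640-85473939, + strand: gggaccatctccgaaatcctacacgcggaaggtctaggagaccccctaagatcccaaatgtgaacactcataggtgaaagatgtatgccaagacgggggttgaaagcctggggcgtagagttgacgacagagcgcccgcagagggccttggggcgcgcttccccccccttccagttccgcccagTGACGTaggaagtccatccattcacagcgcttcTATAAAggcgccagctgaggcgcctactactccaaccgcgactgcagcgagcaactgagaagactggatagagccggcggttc
Fosb, chr7:19309996-19310295, - strand: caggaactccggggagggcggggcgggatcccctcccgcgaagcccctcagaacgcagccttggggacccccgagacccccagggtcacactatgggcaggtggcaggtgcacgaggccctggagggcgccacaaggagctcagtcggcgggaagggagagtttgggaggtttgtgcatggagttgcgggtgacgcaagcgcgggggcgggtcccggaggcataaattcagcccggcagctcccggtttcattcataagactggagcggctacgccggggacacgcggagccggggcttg
Egr2, chr10:67537619-67537918, + strand: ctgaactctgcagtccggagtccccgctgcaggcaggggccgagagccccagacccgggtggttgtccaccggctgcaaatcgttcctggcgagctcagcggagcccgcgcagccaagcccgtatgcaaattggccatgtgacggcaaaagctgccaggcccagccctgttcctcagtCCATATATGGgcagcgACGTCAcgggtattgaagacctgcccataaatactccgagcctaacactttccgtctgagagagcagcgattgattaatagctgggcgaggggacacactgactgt
Atf3, chr1:191183284-191183583, - strand: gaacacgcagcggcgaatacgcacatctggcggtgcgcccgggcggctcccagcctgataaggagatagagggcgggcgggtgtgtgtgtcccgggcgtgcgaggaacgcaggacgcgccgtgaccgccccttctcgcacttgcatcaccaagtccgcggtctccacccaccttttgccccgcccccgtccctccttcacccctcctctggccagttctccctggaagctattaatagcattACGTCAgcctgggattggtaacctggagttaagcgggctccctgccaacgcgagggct

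The Fos window held TGACGT at -66 and TATAAA at -33, counted to the first base of the match from the start. The Egr2 window held a CArG box at -72 and TGACGT, on the reverse strand, at -56. A CArG box was found in 4 of the 5 Egr2 windows of the table, from which the window shown was taken. The Egr2 windows that overlap hold the same CArG box, so the 4 are not separate sites. Of all 32851 windows, 1.63% held a CArG box. TGACGT was found in 7.51% of all windows, TATAAA in 13.6%, TGANTCA in 7.81% and the whole TGACGTCA in 1.79%. The Atf3 window held TGACGT at -8, the Junb window held TATAAA at 0, and the windows of Fosb, Jun and Ier3 held none of the 5 motifs. None of the 7 genes had TGANTCA or TGACGTCA in its window. These matches are letters only and are no measure of binding. The windows reach 250 bases before the start, so sites further upstream were not searched.

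For 4 of the 10 genes, Fos, Fosb, Egr1 and Egr2, the day 0 level was more than 10-fold above the mean of days 5 to 10 in both lines. Summed over the 10 genes, RNA came to 3080 CPM at day 0, then to 424.3, 499.3, 325.6, 335.2 and 328.1 CPM on days 5, 6, 7, 8 and 10 in RepB. In WT the sums were 2691 CPM at day 0, then 368.5, 483.4, 384.9, 373.5 and 331.9 CPM later. Egr1, Fos and Fosb made up 70.9% of the sum in RepB and 76.0% in WT at day 0, and 6.55% to 12.5% on the later days. Day 0 was the highest of the 6 days for 10 of the 10 genes in RepB and for 8 in WT, where Egr3 and Jun were the exceptions. Of all 15178 named genes tested, 28.9% had day 0 highest in RepB, 32.6% in WT and 24.1% in both. Since these values chose the genes, nothing is read from the counts.

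**Figure D1:**
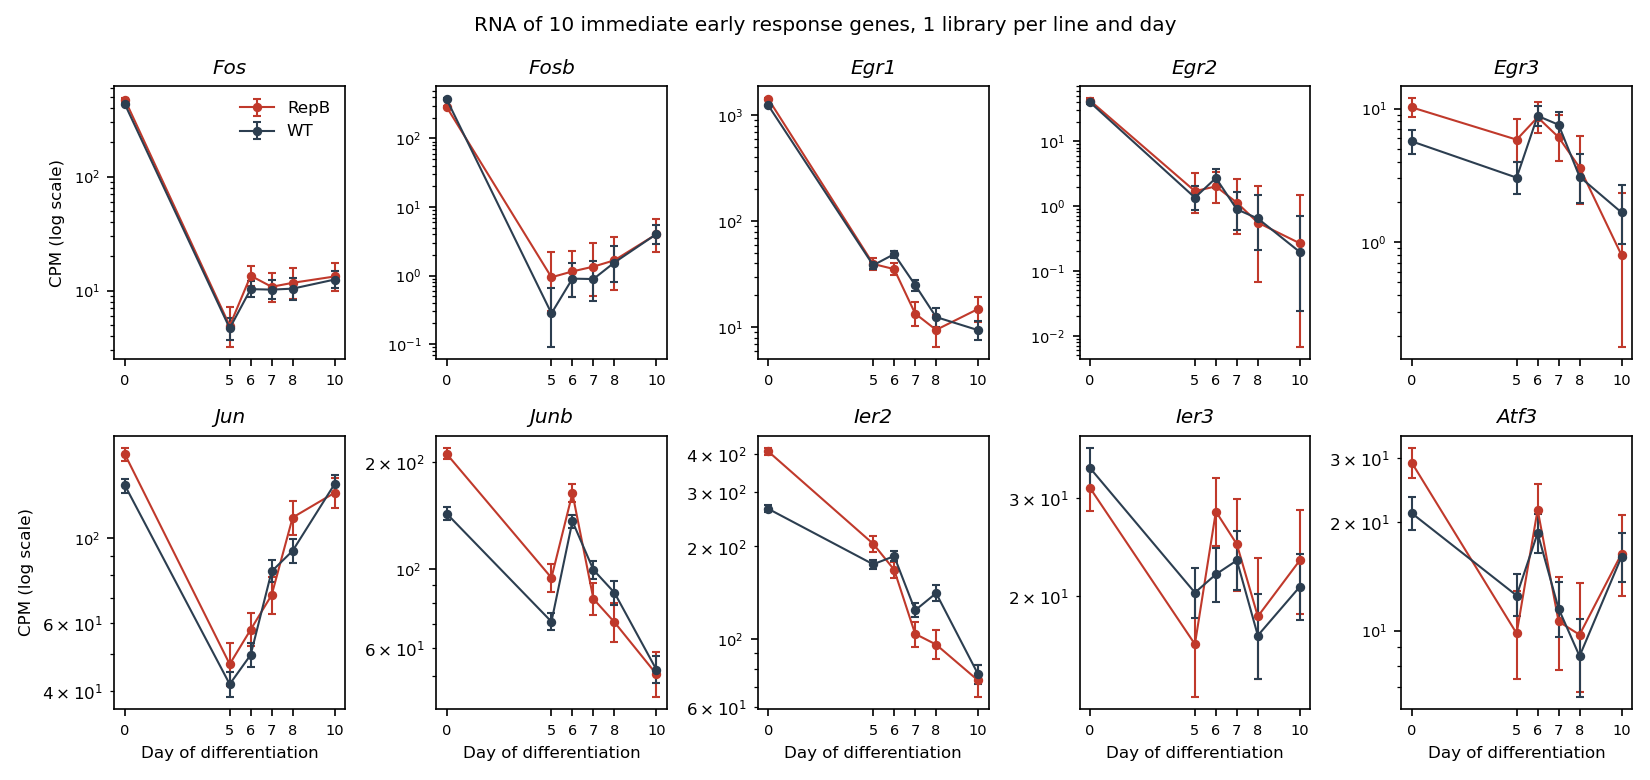
RNA level of each gene (CPM, log scale) against day of differentiation, RepB in red and WT in dark blue, 1 library per point with its exact Poisson 95% interval. Fos, Fosb, Egr1 and Egr2 are far higher at day 0 than on any later day in both lines, while Jun is lowest at day 5 and, of the later days, highest at day 10.

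Fos (chromosome 12, mm9, first listed exon 86814851 to 86815130), the founding AP-1 subunit, reached 475 CPM before differentiation (day 0) in RepB, then had 4.91, 13.5, 10.8, 11.7 and 13.3 CPM on days 5, 6, 7, 8 and 10. WT libraries gave 433 CPM before differentiation, then 4.67, 10.3, 10.2, 10.4 and 12.5 CPM. In both lines day 5 was the lowest day, and its interval lay below those of the other later days. The day 0 level was 43.8 times the mean of days 5 to 10 in RepB and 44.9 times in WT.

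Fosb (chromosome 7, first listed exon 19888045 to 19890651), a relative of Fos whose splice form lasts in neurons, was nearly silent after day 0. RepB had 289 CPM at day 0, then 0.944, 1.15, 1.35, 1.67 and 4.00 CPM at days 5, 6, 7, 8 and 10. WT had 375 CPM at day 0, then 0.281, 0.902, 0.890, 1.55 and 4.02 CPM on the same later days. The later values rest on 5 to 15 counts per library in RepB and 5 to 41 in WT. Among days 5 to 10, day 10 was the highest in both lines, and in WT its interval (2.88 to 5.45 CPM) lay above that of day 8 (0.799 to 2.70 CPM). In RepB the intervals of levels next to each other in size overlapped throughout days 5 to 10. The day 0 level was 159 times the later mean in RepB and 245 times in WT.

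Egr1 (chromosome 18, first listed exon 35020861 to 35021440), a zinc finger factor that serum, growth factors and depolarisation induce, had the highest RNA level of the 10 per kilobase of exon at day 0. RepB libraries gave 1421 CPM at day 0, then 39.6, 35.4, 13.5, 9.46 and 14.9 CPM on days 5, 6, 7, 8 and 10. WT libraries gave 1237 CPM at day 0, then 38.5, 49.0, 25.1, 12.5 and 9.41 CPM later. Unlike Fos and Fosb, Egr1 was higher at days 5 and 6 than from day 7 on in both lines, with a day 10 level 0.377 times that of day 5 in RepB and 0.244 times in WT. Day 0 was 62.9 times the later mean in RepB and 46.0 times in WT.

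Egr2 (chromosome 10, first listed exon 67000617 to 67001137), known for its roles in the hindbrain and in myelin, was likewise higher at days 5 and 6 than later, and lower than Egr1 per kilobase of exon in every library. RepB had 42.3 CPM at day 0, then 1.70, 2.01, 1.13, 0.556 and 0.267 CPM at days 5, 6, 7, 8 and 10. WT had 39.8 CPM at day 0, then 1.35, 2.71, 0.890, 0.644 and 0.196 CPM later. The days stood in the same order in both lines, with day 6 the highest of the later days and day 10 the lowest, but the day 8 and day 10 values rest on 2 and 1 counts in RepB and 5 and 2 counts in WT. Later levels next to each other in size overlapped in their intervals. Day 0 was 37.4 times the later mean in RepB and 34.4 times in WT.

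Egr3 (chromosome 14, first listed exon 70477252 to 70477405), which acts in muscle spindles and lymphocytes, had a far smaller day 0 excess, 2.04 times the later mean in RepB and 1.18 times in WT. RepB had 10.2 CPM at day 0, then 5.85, 8.60, 6.10, 3.62 and 0.801 CPM later. WT had 5.68 CPM at day 0, then 3.04, 8.81, 7.56, 3.09 and 1.67 CPM later. Day 6 was the highest later day in both lines and, in WT, the highest of all, while day 10 was the lowest. Every pair of neighbouring levels overlapped in their intervals in each line.

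Jun (chromosome 4, first listed exon 94715727 to 94718913), the principal partner of the Fos proteins, was lowest at day 5 and higher on each later day in turn, in both lines. RepB had 165 CPM at day 0, then 47.0, 57.8, 71.1, 113 and 131 CPM at days 5, 6, 7, 8 and 10. WT had 137 CPM at day 0, then 41.7, 49.7, 81.9, 92.6 and 138 CPM later. The day 10 level was 2.79 times that of day 5 in RepB and 3.32 times in WT. Not every step was beyond counting error. In RepB the intervals of days 5 and 6, of days 6 and 7 and of days 8 and 10 overlapped, and in WT those of days 7 and 8. The intervals of day 10 and day 0 overlapped in WT (131 to 146 and 131 to 142 CPM), and in RepB day 10 lay below day 0 (119.7 to 143 and 158 to 171 CPM).

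Junb (chromosome 8, first listed exon 87500808 to 87502647), which often opposes Jun in AP-1, was highest of the later days at day 6. RepB had 210.3 CPM at day 0, then 94.4, 163, 82.4, 70.9 and 50.7 CPM later. WT had 143 CPM at day 0, then 71.1, 136, 99.4, 85.8 and 52.2 CPM later. Day 10 was the lowest in both lines, and in WT the day 0 and day 6 intervals overlapped.

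Ier2 (chromosome 8, first listed exon 87185230 to 87186751), a nuclear protein induced by growth factors, was the most abundant of the 10 per kilobase of exon on every later day in both lines. RepB had 407 CPM at day 0, then 204, 168, 104, 96.0 and 73.4 CPM at days 5, 6, 7, 8 and 10. WT had 265 CPM at day 0, then 175, 186, 124, 141 and 76.9 CPM later. Its day 10 level was 0.360 times that of day 5 in RepB and 0.439 times in WT.

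Ier3 (chromosome 17, first listed exon 35958658 to 35958873), a stress-induced regulator of cell survival, varied least over the days. RepB had 31.3 CPM at day 0, then 16.4, 28.4, 24.8, 18.4 and 23.2 CPM later. WT had 34.0 CPM at day 0, then 20.3, 21.9, 23.2, 17.0 and 20.8 CPM later. All neighbouring levels in RepB overlapped in their intervals.

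Atf3 (chromosome 1, first listed exon 192994176 to 192995558), a leucine zipper protein that cell stress induces, was high at day 0 and day 6. RepB had 29.1 CPM at day 0, then 9.82, 21.6, 10.6, 9.74 and 16.3 CPM later. WT had 21.1 CPM at day 0, then 12.5, 18.6, 11.5, 8.5 and 16.0 CPM later. Day 6 was the highest of the later days for Egr2, Egr3, Junb and Atf3 in both lines, and day 8 was the lowest for Atf3. For Egr3, Jun, Junb, Ier2, Ier3 and Atf3 the day 0 level was 1.40 to 3.16 times the later mean in RepB and 1.18 to 1.89 times in WT.

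Per kilobase of exon, Egr1 led at day 0, with 463 CPM per kilobase in RepB and 403 in WT. From day 5 on Ier2 led, at 134 CPM per kilobase at day 5 and 48.2 at day 10 in RepB, and at 115 and 50.5 in WT. Fos, 227 CPM per kilobase in RepB and 207 in WT at day 0, was 2.34 and 2.23 at day 5.

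The genes also differed in how they moved with one another. Over the 12 libraries the log2 level of a gene correlated with the mean of the other members at 0.42 (Jun) to 0.96 (Egr2). Over the 10 libraries of days 5 to 10 the same correlation was -0.65 for Jun, -0.54 for Fosb, 0.01 for Fos, 0.86 for Junb and 0.37 to 0.61 for the other 6 genes. These values describe 12 libraries that share their days and their 2 lines.

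Averaged over days 5 to 10, the levels of these genes differed little between RepB and WT, though on single days some differed more, in either direction. The log2 of RepB over WT, with 0.5 CPM added to each level, averaged 0.15 ± 0.13 (SD over 5 days) for Fos, which was higher in RepB on 5 of 5 days, and 0.32 ± 0.35 for Fosb, which was higher on 4. It was -0.21 ± 0.57 for Egr1, 0.03 ± 0.26 for Egr2 and 0.00 ± 0.59 for Egr3. For Jun it was 0.08 ± 0.21, for Junb 0.02 ± 0.31, for Ier2 -0.16 ± 0.28, for Ier3 0.09 ± 0.24 and for Atf3 0.00 ± 0.23. The mean ratio of Fos was larger than its SD, and that of each of the other 9 genes was smaller than its SD. On this scale the lines differed by 2-fold in 0 of the 50 pairs of gene and later day, where 2.64%, 3.34%, 3.64%, 8.1% and 3.78% of the genes tested did at days 5, 6, 7, 8 and 10. At day 0 the count was 0 of 10, where 1.6% of genes did. The count depends on what is added to the levels, and with nothing added 2 pairs passed 2-fold, Fosb at day 5, from 5 counts in each line, and Egr3 at day 10, from 3 counts in RepB and 17 in WT. The intervals of the lines overlapped in both.

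**Figure D2:**
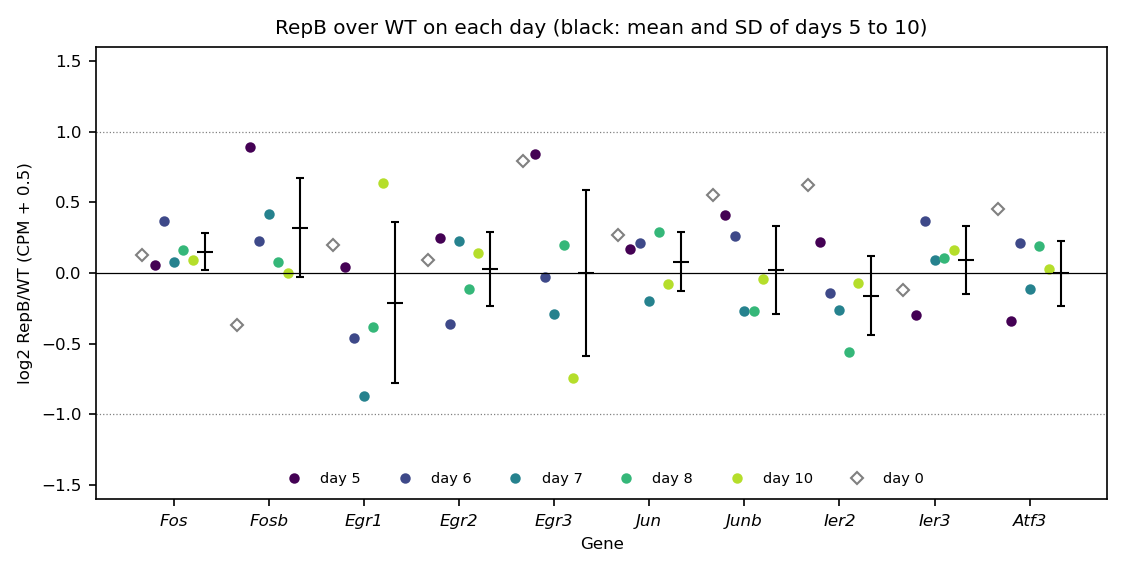
Log2 RepB/WT ratio of each gene (CPM plus 0.5) on each day, filled points for days 5 to 10, open diamonds for day 0, and black bars for the mean and SD of days 5 to 10. No point reaches the dotted lines of a 2-fold difference.

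Some genes differed between the lines on some later days by more than counting error. The intervals of the lines did not overlap for Ier2 on days 5, 6, 7 and 8, for Junb on days 5, 6 and 7, or for Egr1 on days 6 and 7. Nor did they for Egr3 at day 5, Ier3 at day 6 and Jun at day 8. The direction was not steady, since Ier2 and Junb were higher in RepB at day 5 and lower at day 7. For Egr1 the log2 of RepB over WT was -0.87 at day 7, with intervals of 10.3 to 17.4 CPM in RepB and 22.2 to 28.2 CPM in WT. At day 10 the Egr1 ratio was 0.64, but the intervals overlapped slightly, at 11.3 to 19.4 CPM in RepB and 7.62 to 11.5 CPM in WT. For Ier2 it was -0.56 at day 8, with intervals of 86.1 to 107 CPM in RepB and 133 to 150 CPM in WT. At day 0 the ratio was 0.79 for Egr3, 0.62 for Ier2, 0.55 for Junb, 0.45 for Atf3, 0.27 for Jun, 0.20 for Egr1, 0.13 for Fos, 0.09 for Egr2, -0.12 for Ier3 and -0.37 for Fosb. Each of these is 1 library against 1, so the spread between cultures is unknown.

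A fit across all genes compared RepB with WT over days 5 to 10 with edgeR's quasi-likelihood test, the 5 days serving as blocks. It called 346 of 15179 genes, 2.28%, at a Benjamini-Hochberg adjusted p of 0.05, with 1.51% higher and 0.771% lower in RepB, and 0 of the 10 genes were among them. The genes were chosen with these values known, so the count is a description, and nothing is read from it.

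Of 33 other primary response genes, 0 passed the edgeR test of RepB against WT, and DESeq2 called 0. An unadjusted p under 0.05 was found for 6, 18.2% of the list, where 15.0% of all genes tested had one. Their median log2 was 0.03, against 0.00 over all genes tested. The 3 most abundant were Mcl1, a survival protein of the Bcl2 family, at 266 ± 87.2 CPM in RepB and 250.4 ± 67.0 CPM in WT, the AP-1 subunit Jund, at 216 ± 78.4 and 209 ± 56.2 CPM, and Zfp36l1, an RNA-binding protein that destabilises AU-rich messages, at 219 ± 101 and 226 ± 95.9 CPM (SD over 5 days).

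Among 29 upstream signalling and partner genes, 1 passed the test between the lines, Araf, an X-linked kinase of the MAP kinase cascade. It stood at 111, 118, 151, 145 and 145 CPM in RepB and at 90.8, 100.3, 104, 115 and 102 CPM in WT over days 5, 6, 7, 8 and 10, higher in RepB on 5 of 5 days. Its fitted log2 was 0.41 ± 0.08 (SE), with an edgeR adjusted p of 0.0249, and leaving out day 5, 6, 7 or 10 gave 0.0545, 0.0683, 0.152 and 0.106. Elk1, a ternary complex partner of serum response factor, and the kinase Rps6ka3 are X-linked too and were chosen after their values were seen. They had a log2 of 0.35 ± 0.10 (edgeR adjusted p = 0.117) and -0.13 ± 0.11 (adjusted p = 0.652), higher in RepB on 5 and on 1 of 5 days. Braf, a kinase of the same cascade and among the most abundant genes of the list, had a log2 of 0.07 with an edgeR adjusted p of 0.822 and did not pass.

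Of 22 stress response genes, 0 passed the edgeR test between the lines, and DESeq2 called 0. An unadjusted p under 0.05 was found for 5, or 22.7%, beside the same 15.0% of all genes. Without day 8, 1 gene was called, the small heat shock protein Hspb1 (log2 0.41, adjusted p = 0.0147). Hsp90ab1, Hsp90aa1 and Asns, the most abundant of the list, had a log2 of 0.11, 0.11 and 0.12, with edgeR adjusted p of 0.538, 0.729 and 0.687.

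Days 5 to 10 against day 0 moved the wider primary response list in both directions. The same fit called 28 of the 33 genes, 12 higher and 16 lower than at day 0, where 64.1% of all genes tested passed, 31.7% higher and 32.3% lower. The median log2 of the list was -0.26, against 0.01 over all genes. The error term of this test comes from how the lines differed day by day and holds no spread between cultures. Mcl1 (log2 -0.84) and Jund (-0.56) fell and Zfp36l1 (0.40) rose. The call of Zfp36l1 was lost without day 7 (edgeR adjusted p = 0.0645) and without day 10 (0.19), and its day 5 level was below its day 0 level in both lines.

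The genes of this paragraph were chosen for the size of their change. Arc, a capsid-like protein of the synapse, stood at a mean of 20.7 CPM over days 5 to 10 in RepB, against 93.8 CPM at day 0, and at 18.5 CPM in WT, against 77.0 CPM at day 0 (fitted log2 -2.21). The polo-like kinase Plk3 (-2.21), the MAP kinase phosphatase Dusp1 (-2.03), the AP-1 subunit Fosl1 (-2.01) and the kinase Sgk1 (-1.99) fell by similar amounts. Egr4, the fourth Egr factor, had 7.68 CPM in RepB and 5.03 CPM in WT at day 0 and 0 counts in both lines at day 10. The largest rises were those of Dusp2, another MAP kinase phosphatase (log2 2.68), Npas4, a transcription factor of neurons (2.45), Ier5 (1.97), the AP-1 subunit Fosl2 (1.61), Ier5l (1.54) and the matrix protein Cyr61 (1.27). Npas4 was low, at 1.35 ± 1.20 CPM in RepB and 1.33 ± 0.64 CPM in WT later, and lost its call after thinning to equal depth (log2 0.87, edgeR adjusted p = 0.465). Fosl2 had 67.8 CPM at day 10 and 14.0 CPM at day 0 in RepB, and 76.8 and 16.5 CPM in WT.

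**Figure D3:**
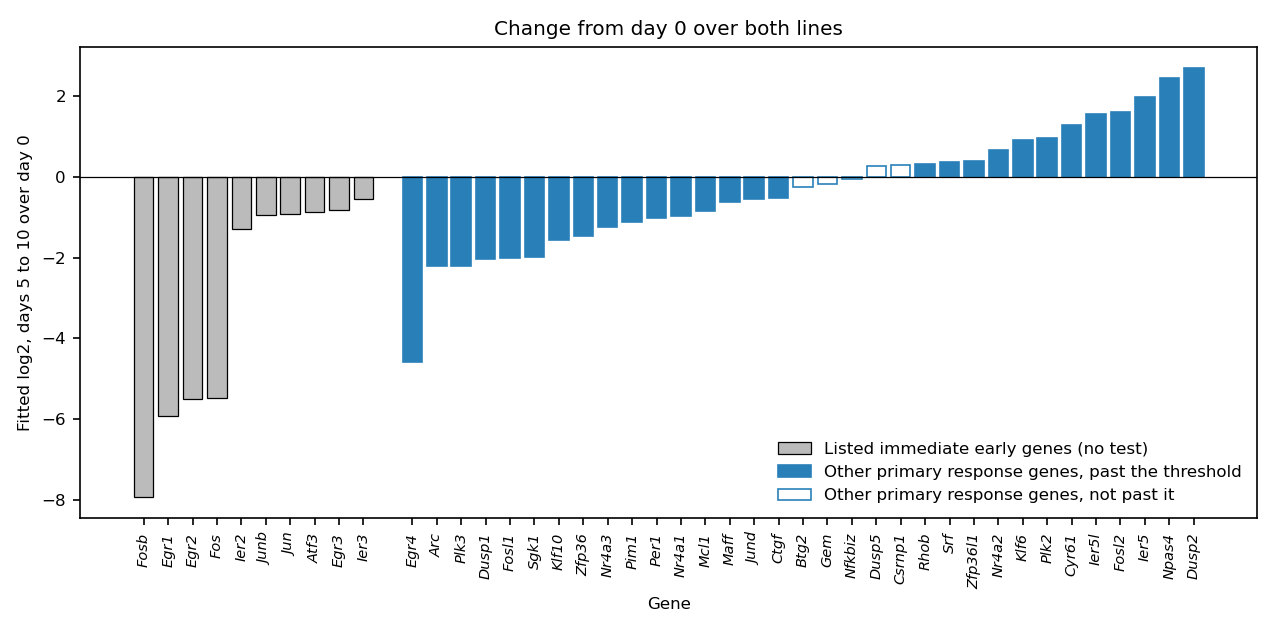
Fitted log2 of days 5 to 10 over day 0, mean of both lines, for the 10 immediate early genes (grey, description only) and 33 other primary response genes (filled blue where the edgeR adjusted p is under 0.05, open where it is not). The grey bars run from -7.92 (Fosb) to -0.55 (Ier3), and the blue bars lie on both sides of 0.

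Of the 29 upstream and partner genes, the same fit called 11 higher and 5 lower on days 5 to 10 than at day 0. Their median log2 was 0.10. Of all genes tested, 31.7% were called higher and 32.3% lower, with a median of 0.01. Nab1 and Nab2 are corepressors that bind Egr factors and were chosen here after their values were seen. They were among the 11 higher genes, with a log2 of 1.77 and 0.56. Nab2 was below its day 0 level at day 5 in both lines. It stood there at 13.4 against 24.7 CPM in RepB and at 18.0 against 21.8 CPM in WT. Nab1 stood at 29.5 ± 10.7 CPM in RepB and 30.4 ± 12.3 CPM in WT over days 5 to 10 (SD, n = 5), against 8.34 and 9.00 CPM at day 0. Elk1 was lower, with a log2 of -1.30. Of the 22 stress genes, 5 were called higher and 13 lower, with a median of -0.57, beside those same shares of all genes. Asns, the asparagine synthetase that amino acid stress induces, was at 326 ± 144 CPM in RepB and 289.9 ± 82.8 CPM in WT later, against 969 and 913 CPM at day 0 (log2 -1.64), and Psat1 (-1.81) and Chac1 (-2.61), chosen for their size, were also lower.

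Outside the 10 members, the genes whose log2 levels followed the mean of the immediate early genes best over the 12 libraries were Tubb2b, Cdyl2, Arih2, Mitf, Cspg5, Ppp1r15a, Nptx1, Tnip1, E2f2 and, from the primary response list, Dusp1, with Pearson correlations of 0.964 to 0.975. Tubb2b encodes a tubulin, Mitf a transcription factor of melanocytes, Ppp1r15a a stress-induced phosphatase subunit and E2f2 a cell cycle transcription factor. The mean of the 10 genes was set by day 0, and 179 of the 11395 genes compared reached 0.9. By rank correlation 0 of these 10 were among the top 10. Cdyl2 had 24.7 CPM later and 259 CPM at day 0 in RepB, and 17.5 and 295 CPM in WT, while Arih2 had 53.6 and 95.7 CPM in RepB and 53.1 and 95.1 CPM in WT.

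Markers of other cells moved over the same days, and their part in the results was not tested. Summed over 10 fibroblast and feeder markers, RNA in RepB came to 807 CPM at day 0, then to 52.3, 116, 669.7, 2758 and 13352 CPM on days 5, 6, 7, 8 and 10. In WT it came to 708 CPM at day 0, then to 63.4, 93.5, 497, 1269.6 and 8851 CPM later. The day 10 sums were mostly of the collagens Col1a1, Col1a2 and Col3a1 and of Postn, and 4 of the 10 markers, Thy1, Fbln5, Prrx1 and S100a4, were lower at day 10 than at day 0 in both lines. By the edgeR test of days 5 to 10 against day 0, 0 of the 10 rose and 6 fell. Of all genes tested, 31.7% rose and 32.3% fell. With 1 day left out 0 to 2 of the 10 rose, and 2 rose without day 5 or without day 6. Naive ES cell markers, 7 genes, summed to 333 to 1281 CPM in RepB and 250 to 889.8 CPM in WT over days 5 to 10, against 5443 and 4853 CPM at day 0. Of the 8 blood markers the globin genes Hbb-bh1, Hba-x and Hbb-y and the leukocyte gene Ptprc had 0 counts at day 0 in both lines. At the floor of 3 counts this allows up to 0.197 CPM in RepB and 0.178 CPM in WT. The list summed to 748 CPM in RepB and 108 CPM in WT at day 8, and to 643 and 393 CPM at day 10. On days 5 to 7 it came to 14.3 to 18.1 CPM in RepB and 11.2 to 15.9 CPM in WT. Endothelial, cardiac and neural markers summed at day 0 to 208, 22.2 and 266 CPM in RepB and 221, 21.0 and 209.8 CPM in WT. These sums rest on few genes. In RepB, Pecam1 (173 CPM) made most of the endothelial sum, and Tubb3 (154 CPM) and Nes (75.6 CPM) most of the neural one. Cdh5, Tie1, Emcn, Tnnt2 and Actc1 were at 0.0657 to 0.919 CPM there. Between the lines over days 5 to 10, edgeR called 5 of the 7 naive markers higher in RepB (3 to 5 with 1 day left out). It called 4 of the 6 neural markers lower (0 to 4, with 0 without day 7 and 1 without day 10). It called 2 of the fibroblast, 1 of the endothelial, 1 of the blood and 0 of the cardiac markers higher. Of all genes tested, 1.51% were called higher and 0.771% lower in RepB. The fibroblast count was 0 without day 6 or day 7, and the endothelial count 0 without day 7. With no day term each of these counts was 0.

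Reads over strain variants gave a second measure that did not enter the choice of genes. The authors split a part of each library, 25.5% to 26.7% of counts, into cas and mus columns, read here as the CAST/Ei and 129/Sv/Jae alleles. Of the 10 genes, 7 had a mean of at least 20 allelic counts per library, namely Fos, Fosb, Egr1, Jun, Junb, Ier2 and Atf3. RepB against WT in the cas share over days 5 to 10 gave 0 calls among these 7 by edgeR's quasi-likelihood test on allelic counts, where 2.24% of the 10332 genes tested and 0.530% of the autosomal genes tested were called. With every library kept, 0 had an unadjusted p under 0.05, and without day 10 Fosb had 0.0333 (edgeR adjusted p = 0.806). No other tool was run. The count says little of Fosb and Fos. Fosb had 9 and 14 allelic counts in RepB and WT over days 5 to 10, and Fos had 0 cas counts there. It says little of a change in Egr1, Jun, Junb and Atf3 either, which had 1 to 8 cas counts per line there. The SE of their log2 odds ratios was 1.06 to 1.80, against 0.19 for Ier2. Ier3 had 0 allelic counts in every library.

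Ier2 was expressed from both alleles, more from cas. Its cas share in RepB was 65.8% (Clopper-Pearson 95% interval 63.2 to 68.3) at day 0 and 64.7%, 66.7%, 69.4%, 68.3% and 66.0% on days 5, 6, 7, 8 and 10. In WT it was 61.6% (58.5 to 64.6) at day 0 and 64.9%, 69.0%, 65.8%, 68.3% and 65.4% later. Over days 5 to 10 the mean was 67.0% ± 1.86 in RepB and 66.7% ± 1.84 in WT (SD, n = 5 days). The fitted log2 odds ratio was -0.01 ± 0.19 (SE), with an edgeR adjusted p of 1. Leaving out 1 day gave -0.06 to 0.06.

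**Figure D4:**
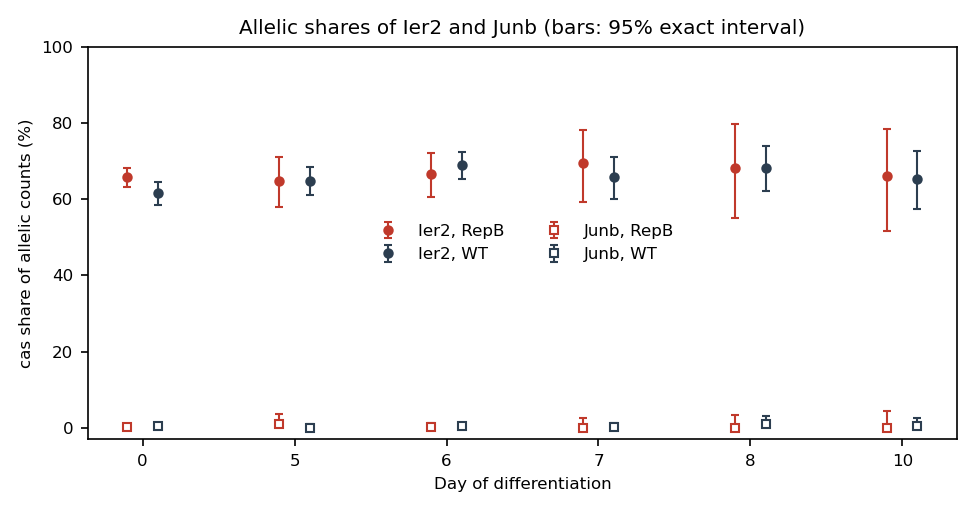
Share of allelic counts from the cas allele (percent) for Ier2 (filled) and Junb (open) by day, RepB in red left of WT in dark blue, with exact 95% intervals. Ier2 lies between 61.6% and 69.4% in all 12 libraries and Junb at 1.02% or less.

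Fosb too was read from both alleles at day 0, with a cas share of 50.2% (46.7 to 53.6, 839 allelic counts) in RepB and 53.8% (50.9 to 56.6, 1192 allelic counts) in WT. Only 9 allelic counts in RepB and 14 in WT fell on days 5 to 10, too few for a share per day. Egr3, below the minimum of the test, had 17 cas and 38 mus counts in all.

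Fos, Jun, Junb, Atf3, Egr1 and Egr2 gave almost no cas counts. Pooled over the 12 libraries, the cas share was 0.104% for Fos (3 of 2882 counts), 0.339% for Junb (18 of 5313), 0.426% for Jun (4 of 938) and 0.876% for Atf3 (7 of 799), and Egr2 had 1 of 131. Egr1 had 1.83% (1.5 to 2.20, 106 of 5805 counts) in RepB and 2.13% (1.77 to 2.55, 120 of 5624) in WT at day 0. On days 5 to 10 it had 0.671% (0.0170 to 3.68, 1 of 149) in RepB and 0.220% (0.00558 to 1.22, 1 of 454) in WT. The later interval of RepB spans its day 0 share, and that of WT lies below its own.

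The genes around them were read the same way, pooled over the 12 libraries and taken over genes with enough allelic counts. Within 1 Mb of Fos, Egr1, Egr2, Jun and Atf3 the median cas share was 0.414% to 0.905%. Within 1 Mb of Fosb it was 48.9%, with 36 of 37 genes between 25% and 75%. Egr3 stood at 30.9% (19.1 to 44.8, 17 of 55 counts), against a median of 0.844% around it. Around Ier3, which has no share of its own, the median was 0.834%.

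Ier2 and Junb lie 316 kb apart on chromosome 8 and fell on opposite sides of a change in that share. Along the first stretch, 18 genes up to Trmt1, Ier2 among them, had cas shares of 55.5% to 75.8% (median 65.0%). After a gap of 143 kb, 26 genes, Junb among them, had a median of 0.940%, with 21 of them under 5%. Exceptions, named after their values were seen, included Calr (17.2%), Prdx2 (31.5%), Wdr83os (10.9%) and 4921524J17Rik (42.0%).

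**Figure D5:**
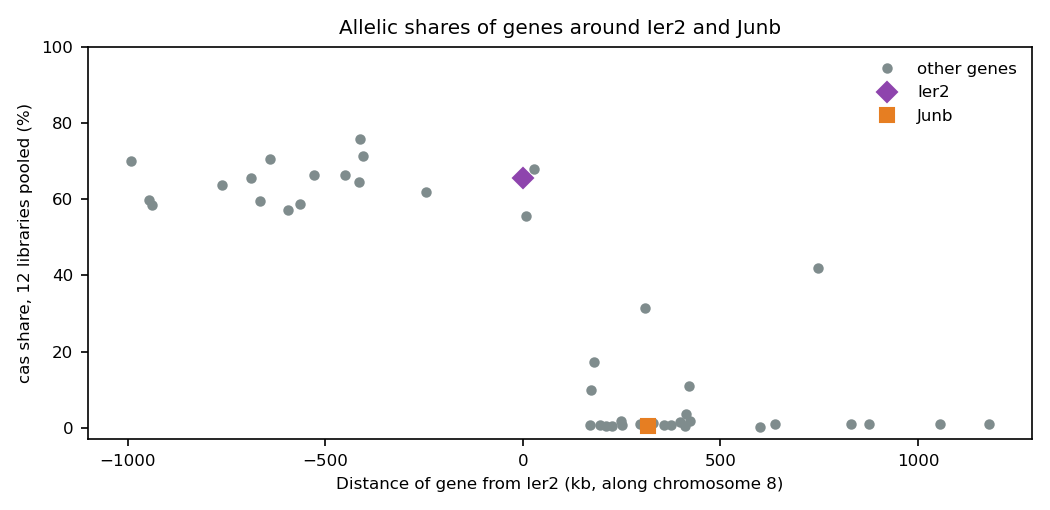
Share of allelic counts from the cas allele (percent, 12 libraries pooled) for genes around Ier2 (purple diamond) and Junb (orange square), against distance from Ier2 in kilobases. Genes up to Trmt1 lie at 55.5% to 75.8%, and most genes after the gap lie under 5%.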

How the data were processed

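The RNA data are 12 polyA libraries, and the 21 other samples of the series were not analysed here. The authors deposited counts per gene without normalization, as total counts and as counts assigned to the cas and mus alleles, with the exon length of each gene as the other deposited unit. The submitters' processing notes name the mm9 build and featureCounts, TopHat, Novoalign, bedtools and SAMtools, without roles. The library kit was directional, per the labels' protocols, but the strand setting of the counting is not given in the sources used here, so genes that overlap others on the opposite strand are uncertain. The table held 6 further count columns with no matching RNA sample, which were not used, 27 gene names turned into dates and 2 duplicated names.

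Tests ran in edgeR 4.0.16 under R 4.3.3: the quasi-likelihood F test after TMM scaling and filterByExpr (groups of line and stage), with day as a factor and a RepB effect at day 0 and over days 5 to 10 (4 residual degrees of freedom, common dispersion 0.015). P values were adjusted by Benjamini-Hochberg over the 15179 genes tested, at 0.05. All 10 immediate early genes passed the filter on low counts. Allelic counts were tested in the same way for genes that averaged 20 or more allelic counts per library. Alternatives were DESeq2 1.42.0, DESeq2 size factors, library totals, no filter, no day term, thinning to equal depth, other pseudocounts (0.1 and 1 CPM) and leaving out each day. The code was tested on simulated counts. A p here measures how steady a difference was over 5 days of 1 time course and says nothing of other cultures. The 12 libraries held 3594551 to 17773138 counts, so 3 counts, the floor for a gene with none, equal 0.169 to 0.835 CPM. The members and gene lists were chosen with earlier results of these data known. Named genes were all 10 members, each list gene past the threshold between the lines, the 3 most abundant of each list, and the 10 genes of most like pattern (mean of at least 5 CPM); others were named for their size or after their values were seen, and some genes the rule names are not reported here.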

Additional observations from a re-analysis of the deposited data

How the results depend on the processing

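Between the lines, the call of 1 upstream gene (Araf) depended on the processing: the count was 0 with no day term and 0 to 1 with 1 day left out, and for Araf the edgeR adjusted p was 1 with no day term and 0.0545 to 0.152 without day 5, 6, 7 or 10. The count of stress genes was 0 to 1 with 1 day left out, 1 without day 8. Over all genes the count of 346 was 592 with no filter on low counts, 0 with no day term (297 at an unadjusted p under 0.05 by edgeR, and 357 by DESeq2 with the day term), and 216, 81, 38, 744 and 134 without day 5, 6, 7, 8 or 10. The count of primary response genes that differed from day 0 was 25 to 29 over the alternatives. The fitted log2 RepB/WT of Egr2 was -0.02 and, without day 6, 0.28. The causes were not tested. RepB libraries of days 5 to 10 were the shallower ones, which limits Egr2, Egr3 and Fosb most, with 1 to 60 counts each there. RepB and WT were paired by day in the fit behind all these counts, with the day as the block, and the values with no day term are those without that pairing. The count of gene and day pairs past 2-fold was 1 with 0.1 CPM added and 2 with nothing added, alternatives chosen after seeing the data.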
